A study of Mus musculus with 55 samples.

Results

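Toll-like receptors and the proteins that work with them directly were followed in the optic nerve head (ONH) of mice after optic nerve crush. The genes were Tlr1, Tlr2, Tlr3, Tlr4, Tlr6 and Tlr7, the co-receptors Cd14 and Ly96, and the adaptor Myd88. All probe sets that the array annotation assigned to 1 of these symbols and to no other gene were taken, which gave 13 probe sets of 9 genes, among 22626 probe sets and 12393 named genes on the array. Tlr7 had 3 probe sets, Tlr3 and Tlr4 had 2 each, and the others had 1.

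Transcript levels came from 55 Affymetrix mouse expression arrays. All mice were female C57Bl/6, aged 6 to 8 weeks at surgery. The left optic nerve was crushed 1 mm behind the globe for 10 s, and ONHs were collected after 1 day, after 3 days, after 1 week, after 3 weeks or after 3 months. The right eye of the same mice gave the contralateral samples, and unoperated mice gave the naïve samples. Every sample pooled 2 ONHs, and each of the 11 conditions had 5 samples, so that crushed and contralateral samples with the same number formed a pair. The naïve samples and the times up to 3 weeks were processed as a first batch of 45 arrays, and the 3-month samples as a second batch of 10 arrays with no naïve samples, so no level was compared between the batches. The values are the deposited linear intensities, in arbitrary units; differences between crushed and contralateral samples are log2 fold changes from limma with the pair as a block, with their standard error (SE). A probe set was called changed when its Benjamini-Hochberg adjusted p over all probe sets tested was under 0.05 and the change was at least 2-fold.

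Toll-like receptors are membrane proteins of the innate immune system that recognise conserved microbial molecules and also molecules released from damaged tissue. Those on the cell surface bind mainly lipids and lipoproteins, while those in endosomes bind nucleic acids. Most of them signal through the adaptor MyD88 to NF-kappaB, which switches on cytokine and chemokine genes; TLR3 signals through another adaptor, TRIF. In the central nervous system microglia carry most of these receptors, and astrocytes carry some, TLR3 among them.

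Sequences upstream of listed start sites of the genes were looked up to show which known motif letters they carry. The RefSeq promoter table (GRCm38.p6) held 5 of the 9 genes, Tlr1, Tlr2, Tlr3, Tlr6 and Myd88, with 7 promoters. The 250 bases upstream of a listed start of Tlr2 (chr3:83841609-83841858), Tlr3 (chr8:45410381-45410630) and Myd88 (chr9:119340019-119340268), all on the minus strand, are shown. They were picked because Tlr2 and Myd88 rose after crush while Tlr3 did not. By the gene positions given below, the Tlr3 stretch lay within the span of its gene, and the Tlr2 stretch partly within. Of these stretches only that of Myd88 lay wholly outside its gene. Capitals mark the letters of motif matches that lay wholly within the 250 bases. Matches that ran across the start, at the end of the Tlr2 and Tlr3 stretches, were left in lower case. The motifs were searched on both strands. For NF-kappaB the motif was GGG and CC with any 5 bases between them. For the interferon response it was GAAA and GAAA with any 2 bases between them, for PU.1 GAGGAA and for AP-1 TGANTCA.
Tlr2: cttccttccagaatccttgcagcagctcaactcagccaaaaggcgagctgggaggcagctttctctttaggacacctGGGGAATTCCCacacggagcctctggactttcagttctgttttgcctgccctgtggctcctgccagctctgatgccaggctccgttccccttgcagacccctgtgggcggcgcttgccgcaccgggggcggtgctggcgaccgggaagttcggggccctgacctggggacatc
Tlr3: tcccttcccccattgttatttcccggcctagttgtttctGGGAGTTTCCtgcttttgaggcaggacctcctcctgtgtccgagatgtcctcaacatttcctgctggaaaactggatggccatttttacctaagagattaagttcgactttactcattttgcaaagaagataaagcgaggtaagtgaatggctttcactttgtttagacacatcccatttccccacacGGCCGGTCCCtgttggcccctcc
Myd88: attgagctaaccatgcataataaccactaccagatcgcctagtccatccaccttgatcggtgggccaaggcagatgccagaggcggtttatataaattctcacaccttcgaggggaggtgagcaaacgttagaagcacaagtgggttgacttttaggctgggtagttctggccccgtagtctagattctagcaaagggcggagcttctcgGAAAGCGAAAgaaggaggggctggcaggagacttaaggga
The NF-kappaB letters stood in the Tlr2 and Tlr3 stretches, and the interferon response letters in that of Myd88. Over 300 bases around the start (250 before and 50 after), the NF-kappaB letters were found in 3 of the 7 promoters and in 50.8% of all 32851 promoters in the table. The interferon response letters were found in 2 of the 7, those of Myd88 and Tlr6, and in 3.44% of all. The PU.1 letters were found in 1 of the 7, a Tlr1 promoter, and in 28.3% of all, and the AP-1 letters in 0 of the 7 and in 7.81% of all. The matches describe letters only.

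The tissue carried the markers of the ONH. In naïve samples the mean log2 intensity of 12 astrocyte genes lay between 12.03 and 12.25 and that of 10 oligodendrocyte genes between 11.83 and 12.11. The mean of 12 photoreceptor genes ranged from 5.71 to 12.25 among the naïve samples and up to 13.02 in contralateral sample 1 at 3 months, so the amount of retina in the samples varied in every condition. With the photoreceptor level as a covariate, the number of members called at each time was the same as without it. Because these are whole-tissue samples, more cells of a type and more RNA per cell cannot be told apart.

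Several of the receptors, but neither Tlr3 nor Tlr7, were called higher within 1 day. At 1 day 6 of the 13 member probe sets were called higher, of Tlr1, Tlr2, Tlr4 (1 of its 2 probe sets), Tlr6, Cd14 and Myd88, where 7.02% of all 19313 probe sets tested were called higher. At 3 days 7 of 13 were higher, for Tlr1, Tlr2, Tlr6, Cd14 and all 3 probe sets of Tlr7 (all probe sets, 6.6%). At 1 week 7 of 13 were higher, for Tlr1, Tlr2, Tlr4 (1 of its 2 probe sets), Tlr6 and all 3 of Tlr7 (6.21%). At 3 weeks 3 of 13 were higher, for Tlr1 and 2 probe sets of Tlr7 (2.36%). No member was called lower by limma, where 7.44%, 2.2%, 3.53% and 1.75% of all probe sets were at the successive times; 2 members had a negative log2 fold change at each of them, both of Tlr3, with an unadjusted p under 0.05 for 2, 1, 1 and 0 of them, where 30.7%, 18.9%, 22.6% and 18% of all probe sets were lower at that level. By the methods' paired t-test on linear intensities, with Benjamini-Hochberg adjustment and the 2-fold limit, 6 members were called higher at 1 day, 5 after 3 days, 1 after 1 week and 0 at 3 weeks. How many of all probe sets this t-test called was not counted at any time, so these counts have no share beside them. All 13 probe sets passed the filter on low values in each model. The median log2 fold change of the 13 was 0.84, 1.12, 1.23 and 0.56 from the first day to week 3, against medians of -0.03, 0.04, 0.02 and -0.00 over all probe sets tested. All 5 crushed samples lay above all 5 contralateral samples for 7 of 13 member probe sets at 1 day (22.7% of all probe sets), for 8 at 3 days (20.5%), for 10 at 1 week (12.6%), for 6 at 3 weeks (8.2%) and for 2 at 3 months (3.51%). They lay below for 1 of 13 at 3 days (10.2%).

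**Figure D1:**
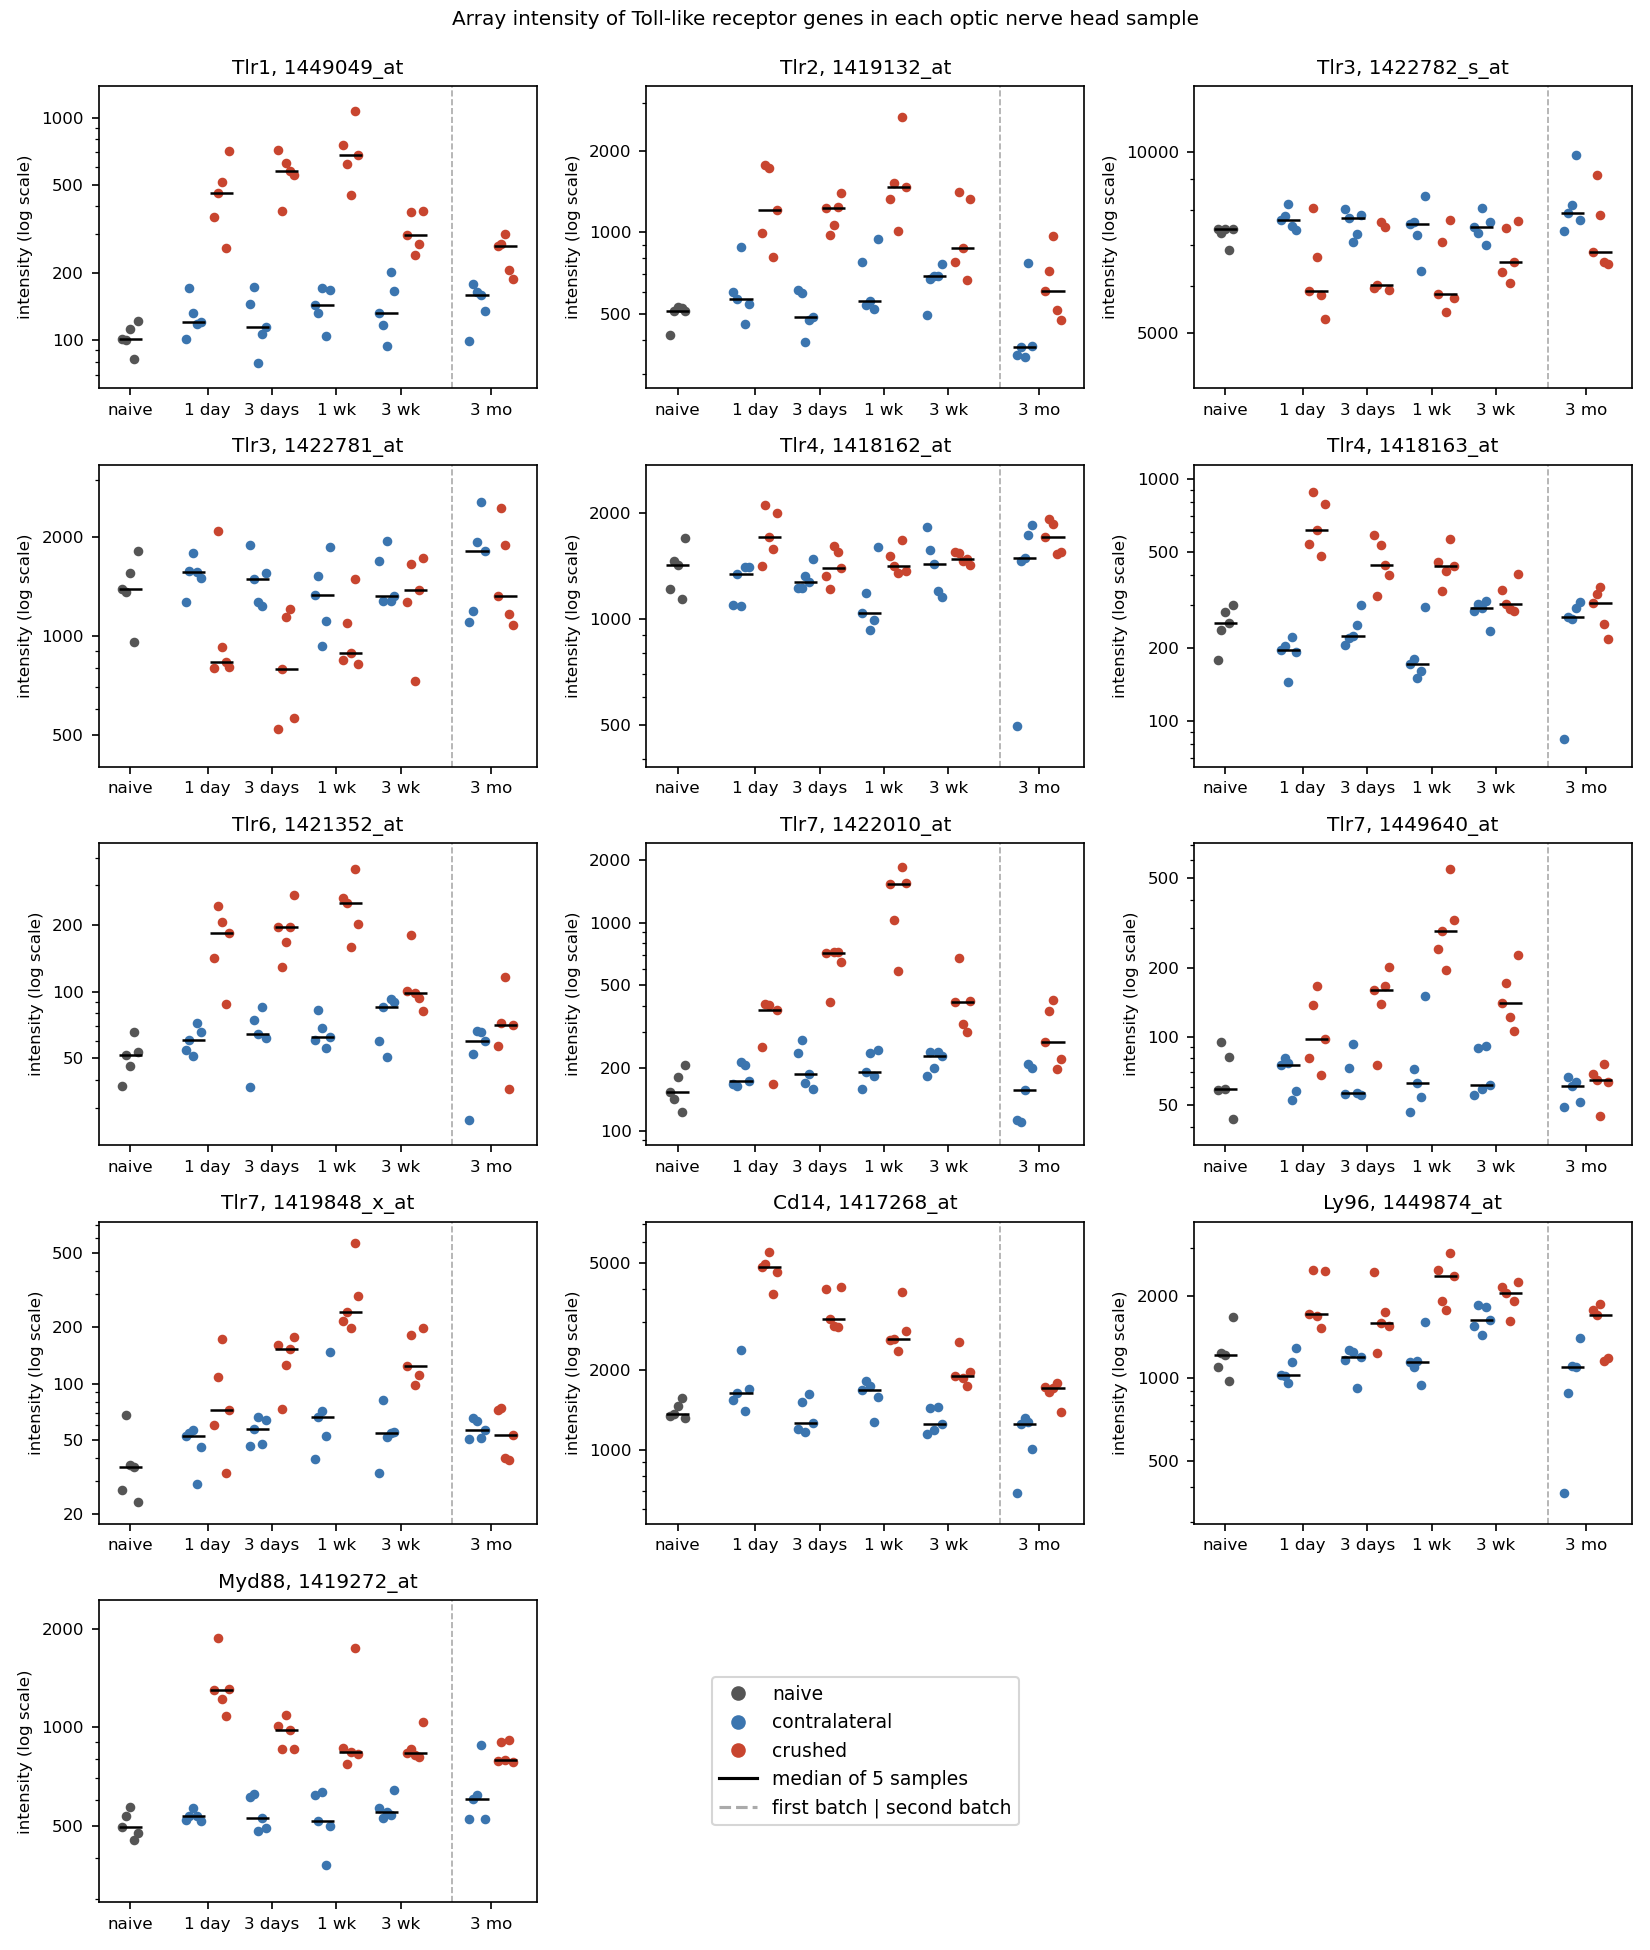
Intensity (log axis, arbitrary units) of the 13 member probe sets in each naïve, contralateral and crushed sample, with a dot per sample, a black bar at the median of 5 and a dashed line between the batches. Tlr1 in crushed samples lay between 261 and 1071 from 1 day to 1 week and between 79.3 and 173 in the contralateral samples of those times, while Tlr3 1422782_s_at lay between 5279 and 8057 in crushed and between 6355 and 8440.2 in contralateral samples of the same times.

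**Figure D2:**
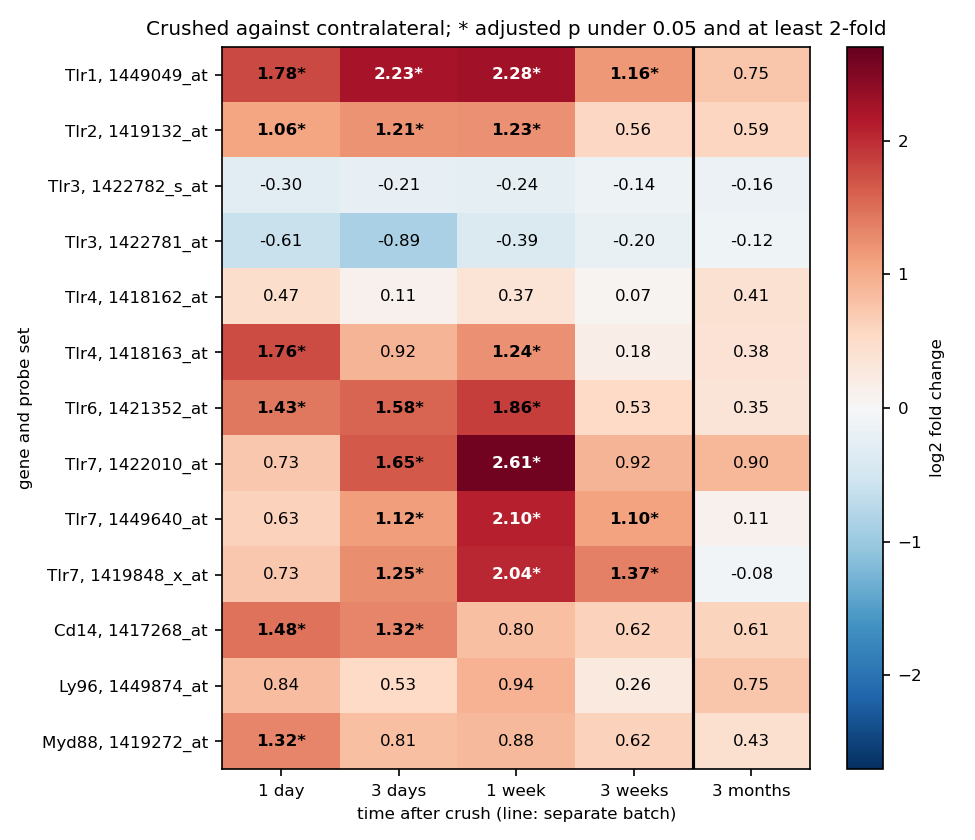
Heat map of the log2 fold change of crushed over contralateral samples for each member probe set (rows) at each time (columns), with an asterisk where the change was called. Values run from -0.89 for Tlr3 1422781_at at 3 days to 2.61 for Tlr7 1422010_at at 1 week, and the 3-month column holds no asterisk.

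Tlr1, Tlr2 and Tlr6 encode the surface receptors for lipoproteins, in which TLR2 pairs with either TLR1 or TLR6. Tlr1 (GRCm38.p6 chr5:64924680-64933600) and Tlr6 (chr5:64953092-64970942) are neighbours on chromosome 5, and Tlr2 is at chr3:83836272-83841824. Tlr1 (1449049_at) had intensities of 101, 100.4, 112, 82.6 and 122 in the naïve samples. At 1 day the contralateral samples read 101, 171, 133, 119 and 121 and the crushed samples 359, 461, 514, 261 and 711. At 1 week the contralateral samples read 144, 133, 172, 104 and 169 and the crushed samples 757, 618, 452, 1071 and 684. All crushed samples were above all contralateral samples at both times. The log2 fold change of Tlr1 was 1.78 at 1 day (SE 0.25, adjusted p = 5.74e-06), 2.23 at 3 days (adjusted p = 7.46e-07), 2.28 at 1 week (adjusted p = 6.23e-07) and 1.16 at 3 weeks (adjusted p = 0.00227), in 5 of 5 pairs each time. Tlr1 was the only member gene called at all 4 times up to 3 weeks.

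Tlr2 (1419132_at) read 417, 512, 532, 524 and 513 in the naïve samples. At 1 day it read 601, 566, 879, 459 and 545 in contralateral and 990.4, 1766, 1729.5, 809 and 1209 in crushed samples. At 1 week it read 776, 539, 557, 519 and 944 in contralateral and 1322, 1520.3, 1012, 2662 and 1473 in crushed samples. The groups overlapped at 1 day, where contralateral sample 3 was above crushed sample 4, and did not overlap at 1 week, where crushed sample 4 was far above the rest. Tlr2 rose by 1.06 at 1 day (SE 0.20, adjusted p = 0.000156), 1.21 at 3 days (adjusted p = 6.92e-05) and 1.23 at 1 week (adjusted p = 5.94e-05) on the log2 scale, in 5 of 5 pairs each time. At 3 weeks the log2 fold change was 0.56 (adjusted p = 0.0506) and was not called. Without pair 2 the 1-day value was 0.92, and without pair 4 the 1-week value was 0.94, both below 2-fold.

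Tlr6 (1421352_at) was the dimmest of these 3 probe sets, with 37.5, 51.8, 46.2, 66.1 and 53.5 in the naïve samples. At 3 days it read 37.2, 74.6, 64.5, 85.6 and 61.6 in contralateral and 194, 129, 168, 195 and 271 in crushed samples, and at 1 week 60.4, 82.6, 68.4, 55.8 and 62.4 against 263, 249, 158, 358 and 201. No crushed value fell in the contralateral range at either time. Tlr6 rose by 1.43 at 1 day (SE 0.27, adjusted p = 0.000128), 1.58 at 3 days (adjusted p = 8.09e-05) and 1.86 at 1 week (adjusted p = 1.26e-05). At 3 weeks the log2 fold change was 0.53 (adjusted p = 0.166) and the groups overlapped.

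Tlr4, Cd14 and Ly96 encode the lipopolysaccharide receptor: CD14 hands lipopolysaccharide to the complex of TLR4 and MD-2, the product of Ly96. Tlr4 lies at chr4:66827551-66846581, Cd14 at chr18:36725064-36726815 and Ly96 at chr1:16688456-16709605. The 2 probe sets of Tlr4 gave different answers. Probe set 1418163_at read 197, 203, 144, 221 and 193 in contralateral samples at 1 day and 539, 879.9, 615, 482 and 785 in crushed samples, with no overlap. Probe set 1418162_at, which is brighter, read 1099, 1342, 1087, 1402 and 1405 against 1415, 2112, 1707, 1581 and 2005, also with no overlap but a smaller gap. The log2 fold change of 1418163_at was 1.76 at 1 day (SE 0.19, adjusted p = 1.77e-07), 0.92 at 3 days (adjusted p = 0.000665, below 2-fold), 1.24 at 1 week (adjusted p = 2.88e-05) and 0.18 at 3 weeks (adjusted p = 0.555). That of 1418162_at was 0.47 at 1 day (SE 0.11, adjusted p = 0.00158), 0.11 at 3 days, 0.37 at 1 week (adjusted p = 0.0135) and 0.07 at 3 weeks, and was not called at any time. The change was greater in 1418163_at in 5 of 5 pairs at 1 day, 3 days and 1 week, by 1.29, 0.80 and 0.87 on the log2 scale on average. With naïve samples as the control, the 1-week value of 1418163_at was 0.83, below 2-fold.

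**Figure D3:**
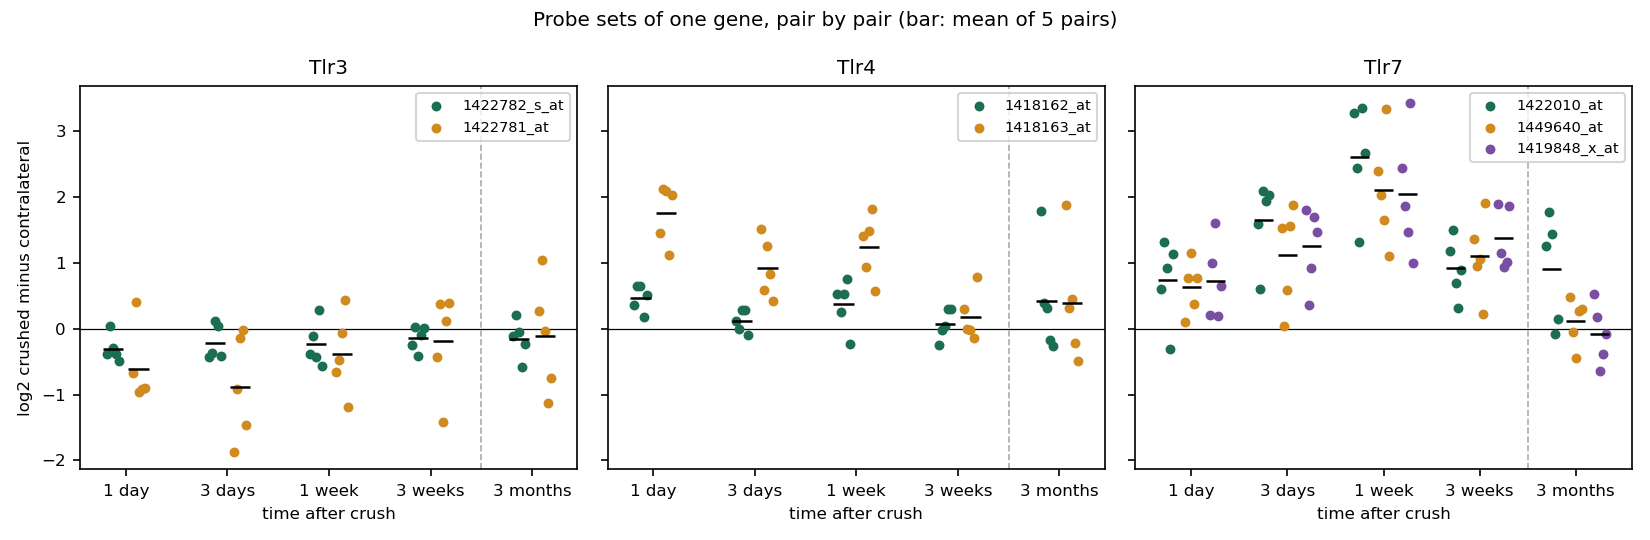
Log2 crushed minus contralateral difference in each of the 5 pairs (dots) at each time, with a bar at the mean, for the probe sets of Tlr3, Tlr4 and Tlr7. Tlr4 1418163_at lay above 1418162_at in 5 of 5 pairs at 1 day, 3 days and 1 week, and in 3 of 5 pairs at 3 weeks.

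Cd14 (1417268_at) had one of the clearest early responses. It read 1336, 1368, 1462, 1568 and 1312 in naïve samples. At 1 day contralateral samples read 1539, 1631, 2368, 1399.9 and 1697, and crushed samples 4847, 4955, 5491, 3841 and 4635. At 3 weeks contralateral samples read 1148, 1436, 1184, 1449.9 and 1247 and crushed samples 1897, 2531, 1852, 1736 and 1963. The groups did not overlap at any of the 5 times. The log2 fold change was 1.48 at 1 day (SE 0.14, adjusted p = 3.62e-08) and 1.32 at 3 days (adjusted p = 3.46e-07), both called. At 1 week it was 0.80 (adjusted p = 0.000123) and at 3 weeks 0.62 (adjusted p = 0.0033), both below 2-fold but in 5 of 5 pairs.

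Ly96 (1449874_at) was not called at any time. At 1 week it read 1152, 1103, 1155, 943 and 1609 in contralateral and 2479.9, 1912, 1779.9, 2872 and 2373 in crushed samples, without overlap. Its log2 fold change was 0.84 at 1 day (SE 0.15, adjusted p = 9.69e-05), 0.53 at 3 days (adjusted p = 0.0082), 0.94 at 1 week (adjusted p = 5.12e-05) and 0.26 at 3 weeks (adjusted p = 0.236). The first 3 values passed the adjusted p but not the 2-fold limit. Without pair 3 or pair 5 the 1-week value was 1.02 or 1.03 and was called.

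Tlr3 and Tlr7 encode endosomal receptors, TLR3 for double-stranded RNA and TLR7 for single-stranded RNA. Tlr7 (chrX:167303380-167330574) reached the greatest fold change of the members. Probe set 1422010_at read 154, 143, 181, 123 and 207 in the naïve samples. At 3 days it read 236, 273, 169, 188 and 159 in contralateral and 714, 415, 723, 722 and 651 in crushed samples, and at 1 week 158, 191, 237, 182 and 244 against 1534, 1029.8, 588, 1859 and 1553. The crushed range lay wholly above the contralateral range at both times, with crushed sample 3 lowest at 1 week. The log2 fold change was 0.73 at 1 day (SE 0.27, adjusted p = 0.0256, below 2-fold), 1.65 at 3 days (adjusted p = 4.9e-05), 2.61 at 1 week (adjusted p = 2.24e-07, 6.1-fold) and 0.92 at 3 weeks (adjusted p = 0.0171, below 2-fold). Without pair 4 the 3-week value was 1.07 and was called.

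The other probe sets of Tlr7 were dimmer and were also called higher at 3 days and 1 week. Probe set 1449640_at ran from 46.4 to 151 in contralateral and from 197 to 548 in crushed samples at 1 week, and 1419848_x_at, a probe set whose suffix marks probes that can match other sequences, from 39.5 to 147 and from 198 to 562. At 1 week their log2 fold changes were 2.10 (SE 0.28, adjusted p = 6.79e-06) and 2.04 (SE 0.29, adjusted p = 9.68e-06). At 3 weeks both were called, at 1.10 (adjusted p = 0.00841) and 1.37 (adjusted p = 0.0016), while 1422010_at was below 2-fold. The 3-day call of 1449640_at (1.12, adjusted p = 0.00357) was lost under quantile normalization (0.94), with arrays shifted to a common median (0.98) and without pair 5 (0.93). Its 3-week call was lost without pair 1 (1.03, adjusted p = 0.0533) and without pair 5 (0.89). At 3 months their log2 fold changes were 0.11 and -0.08, where that of 1422010_at was 0.90, none of them called.

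Tlr3 (chr8:45395665-45411075) was the one receptor with negative log2 fold changes at every time, in both probe sets. Probe set 1422782_s_at read 7453, 7346, 7459.6, 6863 and 7451 in naïve samples. At 1 day it read 7715, 7812, 8204, 7521 and 7404 in contralateral and 5881, 8057, 6684, 5780.3 and 5279 in crushed samples. Crushed sample 2 was within the contralateral range and the other 4 were below it. The log2 fold change was -0.30 at 1 day (SE 0.10, adjusted p = 0.0189), -0.21 at 3 days (adjusted p = 0.114), -0.24 at 1 week (adjusted p = 0.0706) and -0.14 at 3 weeks (adjusted p = 0.362).

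The other probe set of Tlr3, 1422781_at, read 1900.4, 1498, 1273, 1237 and 1560.5 in contralateral samples at 3 days and 521, 794, 1148, 1213 and 565 in crushed samples, so that all crushed samples were below all contralateral samples. Its log2 fold change was -0.89 at 3 days (SE 0.28, adjusted p = 0.0157), below the 2-fold limit; it was called lower with arrays shifted to a common median (-1.02) and without pair 3 (-1.07) or pair 4 (-1.10). At 1 day it was -0.61 (adjusted p = 0.0752), with crushed sample 2 at 2091 and the other 4 between 801 and 926.

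Myd88 (1419272_at, chr9:119335934-119340018) encodes the adaptor shared by these receptors other than TLR3 and by the interleukin-1 receptor. It read 522, 537, 569, 536 and 517 in contralateral samples at 1 day and 1297, 1876, 1225, 1080.4 and 1310.0 in crushed samples. At 1 week it read 623, 519.8, 637, 381 and 502 against 867, 772, 845, 1745 and 833. The groups did not overlap at any time up to 3 weeks, and at 1 week crushed sample 4 was within the range of the 1-day crushed samples while the other 4 were below it. The log2 fold change was 1.32 at 1 day (SE 0.18, adjusted p = 3.52e-06), which was called, then 0.81 at 3 days (adjusted p = 0.00118), 0.88 at 1 week (adjusted p = 0.000539) and 0.62 at 3 weeks (adjusted p = 0.0164), each below 2-fold and in 5 of 5 pairs. Without pair 4 the 1-week value was 0.55.

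Crush effects were compared between times within each probe set. The crush effects of 3 weeks and 1 week were compared within the first batch, where 3.1% of all probe sets tested were called lower at 3 weeks. The effect was lower at 3 weeks by 1.69 for Tlr7 1422010_at (adjusted p = 0.0054), 1.33 for Tlr6 (adjusted p = 0.0223), 1.11 for Tlr1 (adjusted p = 0.0406) and 1.06 for Tlr4 1418163_at (adjusted p = 0.0124) on the log2 scale. That of Tlr1 was not called without the filter on dim probe sets (adjusted p = 0.0593), under quantile normalization (adjusted p = 0.0726) or without pair 1, 4 or 5, and was -0.65 without pair 4. That of Tlr6 was not called without pair 1, 4 or 5, and that of Tlr4 was not called under quantile normalization or without pair 1, 3 or 4. Between 3 weeks and 1 day only Tlr4 1418163_at was called lower, by 1.58 (adjusted p = 0.000122), where 6% of all probe sets were. Cd14 changed by -0.86 (adjusted p = 0.0022) and Myd88 by -0.69 (adjusted p = 0.0371) between these times, both below the 2-fold limit. Between 1 day and 3 days (4.93% of all probe sets called in either direction) and between 3 days and 1 week (3.12%) no member was called by limma, with 3 of 13 at an unadjusted p under 0.05 in each, where 5452 and 4864 of all 19313 probe sets were.

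At 3 months no member was called by limma, where 0.207% of 18823 probe sets were called higher. The number of probe sets called in either direction, 87 in all, was 5, 0, 0, 0 and 58 without pairs 1 to 5 in turn, 6 without the filter on dim probe sets and 302 without the replicate block. At an unadjusted p under 0.05 there were 4 of 13 higher, of Tlr1, Cd14, Myd88 (0.43) and Tlr7 1422010_at (0.90), where 6.69% of all probe sets were, and the methods' t-test after Benjamini-Hochberg adjustment called 0. The median log2 fold change of the 13 was 0.41, against -0.02 over all probe sets. Tlr1 read 98.9, 179.9, 164, 161 and 135 in contralateral and 265, 270.4, 302, 207 and 189 in crushed samples, with no overlap and a log2 fold change of 0.75 (SE 0.22, adjusted p = 0.205). Cd14 read 688, 1248, 1316, 1276 and 1008 against 1724, 1643, 1699, 1786 and 1385, also with no overlap, and its log2 fold change was 0.61 (SE 0.18, adjusted p = 0.209). Contralateral sample 1, the sample with the highest photoreceptor level (mean log2 13.02), was the lowest of its group for 11 of 13 member probe sets and had the lowest mean of the microglia and macrophage genes (10.12). With the photoreceptor level as a covariate the log2 fold change was 0.18 in place of 0.41 for Tlr4 1418162_at, 0.10 in place of 0.38 for Tlr4 1418163_at and 0.44 in place of 0.75 for Ly96, with a median of 0.18 over the 13 and no member called. The part of the microglia level was not tested. Without pair 1 the log2 fold change of Ly96 was 0.38 in place of 0.75, that of Tlr4 1418162_at 0.07 in place of 0.41, that of Tlr4 1418163_at 0.01 in place of 0.38, that of Tlr6 0.16 in place of 0.35 and that of Cd14 0.43 in place of 0.61.

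Contralateral samples were set against naïve samples to see whether the uninjured eye differed. No member was called by limma at any of 4 times, where the share of all 18669 probe sets called in either direction was 0% on the first day and on day 3, then 0.112% at 1 week and 0.691% in the last of these comparisons, 3 weeks. The methods' t-test after Benjamini-Hochberg adjustment also called 0. At an unadjusted p under 0.05 there was 1 higher and 1 lower at 1 day, 2 higher at 3 days, 3 higher and 1 lower at 1 week and 4 higher at 3 weeks. The shares of all probe sets higher at that level were 4.97%, 3.75%, 9.83% and 13.4% at the successive times, and of those lower 1.82%, 1.79%, 4.57% and 14.3%. Ly96 was 0.43 higher on the log2 scale at 3 weeks (adjusted p = 0.0435), below 2-fold, with 1552, 1861, 1444, 1818 and 1629 in contralateral and 1105, 1241, 1221, 981 and 1673 in naïve samples. With naïve samples as the control, 5 member probe sets were called at 3 weeks, adding Tlr6 (1.09) and Tlr7 1422010_at (1.37) to the 3 called against contralateral samples. Over all probe sets, 1200 of 19044 were called in either direction at 3 weeks with that control. Against contralateral samples 455 of 19313 were called higher and 338 lower.

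Single samples were high or low for many members at once. Crushed sample 4 at 1 week was the highest of its group for 13 of 13 probe sets. It also had the group's highest mean log2 intensity of the microglia and macrophage genes, 12.45, and the highest array median of the first batch, 554. Its pair, contralateral sample 4, had the highest photoreceptor mean of its group, 12.42, and was the lowest for 7 of 13. Without pair 4 the 1-week median of the members was 0.94. Crushed sample 3 at 1 week was the lowest for 10 of 13, with a microglia and macrophage mean of 11.66. At 1 day crushed sample 2 was the highest for 9 of 13, with a microglia and macrophage mean of 11.19 in a group that ran from 10.84 to 11.50, and crushed sample 4 the lowest for 10 of 13, and at 3 days crushed sample 2, with a photoreceptor mean of 12.30, was the lowest for 9 of 13. Contralateral sample 5 at 1 week was the highest for 9 of 13, with a mean of 10.97 for these genes in a group that ran from 10.79 to 11.14. The part of these samples in the results was not tested beyond leaving each pair out.

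The genes whose crushed minus contralateral differences ran most like those of each member over the 20 pairs of the first batch were listed by Pearson's correlation, as a description, since the pairs share time points and both genes are read on the same arrays. For Tlr1 they were Skap2 (r = 0.91), Cyp4f18 (0.91) and Fcer1g (0.88), for Tlr6 Rac2 (0.87), Pirb (0.86) and Fcgr3 (0.85), and for Tlr7 Cd48 (0.94), Tyrobp (0.94) and Tspan32 (0.94). For Tlr2 they were Trim25 (0.85), Slc15a3 (0.85) and Ifi209 (0.84), and for Ly96 Klra17 (0.85), Pdcd10 (0.85) and Slc30a6 (0.84). For Tlr4 they were Il13ra1 (0.78), Klra2 (0.76) and Smim3 (0.76), from 1418162_at, the brighter probe set, which was not called at any time. For Cd14 they were Bola2 (0.92), Il4ra (0.92) and Pes1 (0.90), and for Myd88 Tnfaip2 (0.91), C130026I21Rik (0.86) and Clptm1l (0.85). Tlr3, by its brighter probe set 1422782_s_at, ran with Ifit2 (0.91), Cmpk2 (0.87) and Gbp6 (0.87). Ifit2 read 1968, 5963, 3915, 2160 and 2177 in crushed samples at 1 day, so that sample 2 was highest for Ifit2 as for both Tlr3 probe sets. At 1 week crushed sample 4 had 6657 for Ifit2 and 7707 and 1499 for the 2 Tlr3 probe sets, the highest of the group for all 3. Ifit2 was picked for its high correlation in these same pairs, so these shared readings are no separate test.

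**Figure D4:**
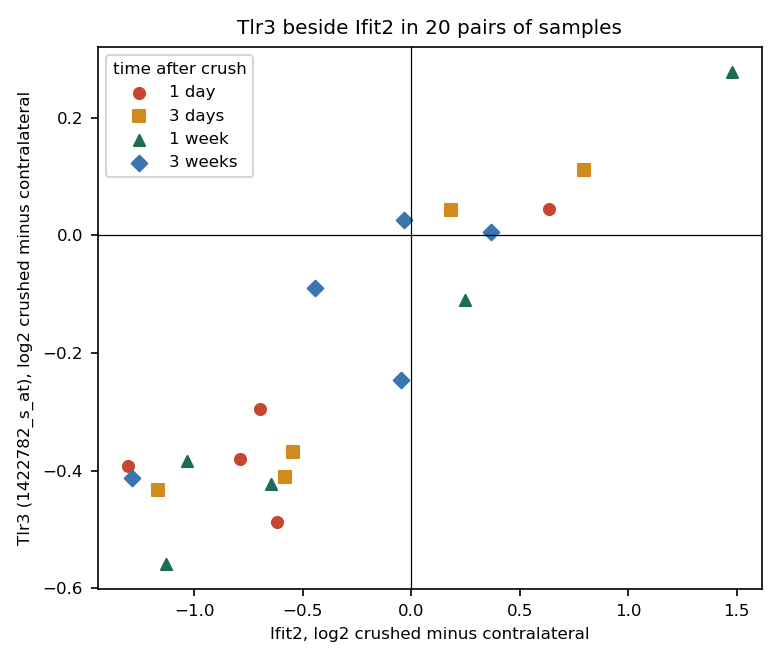
Log2 crushed minus contralateral difference of Ifit2 (horizontal axis) and of Tlr3 1422782_s_at (vertical axis) in the 20 pairs of the first batch, 1 point per pair, with a colour and shape for each time. The points spread along a rising line with r = 0.91, and pair 4 at 1 week lies highest on both axes. Ifit2 was picked for this correlation.

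The rest of the pathway was described from gene lists with 1 probe set per gene. Over all probe sets tested, 7.02%, 6.6%, 6.21% and 2.36% were called higher from 1 day to 3 weeks. The shares called lower were 7.44%, 2.2%, 3.53% and 1.75%. All list counts below are to be read beside these shares. Of 8 other Toll-like receptors and partners tested, 0 were called higher and 1 lower at 1 day, 3 higher at 3 days, 4 higher at 1 week and 1 higher at 3 weeks, with list medians of 0.09, 0.71, 1.23 and 0.55. Tlr8, another endosomal RNA receptor, was called higher at 3 days and 1 week. Its contralateral samples ran from 2.36 to 11.6 at 3 days and from 2 to 20.03 at 1 week, all under the floor of 20 apart from the highest at 1 week, and its crushed samples from 41.22 to 74.35 and from 62.91 to 202.69. Its log2 fold changes of 1.42 (adjusted p = 3.38e-05) and 2.53 (adjusted p = 3.01e-08) were therefore set by the floor. Cd180, a receptor-like partner, rose by 2.07 at 3 days and 1.94 at 1 week, Cd36, a scavenger receptor that assists TLR2, by 1.99 and 1.70, and Unc93b1, the chaperone of the endosomal receptors, by 1.83 at 1 week and 1.02 at 3 weeks. Lbp, which binds lipopolysaccharide in serum, fell by 1.16 at 1 day. Tlr9 was too dim to test.

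Of 18 downstream signalling genes tested, 4 were called higher at 1 day, 2 after 3 days, 1 after 1 week and 0 at 3 weeks by limma, and none lower, with list medians from 0.14 to 0.20. Over all probe sets 7.02%, 6.6%, 6.21% and 2.36% were called higher at these times, so 1 of 18 at 1 week was near that share. The genes called at 1 day were the kinase Ikbke (1.75), the NF-kappaB subunits Rel (1.33) and Nfkb2 (1.05) and the interferon regulatory factor Irf7 (1.18). Of 11 genes listed as brakes on the pathway, 3 were higher at 1 day, Socs3 (2.16), Nfkbiz (1.94) and Zc3h12a (1.25), and 2 at 3 days, Sigirr (1.47) and Socs3 (1.24). At 1 week and at 3 weeks 1 was higher, Nfkbiz each time (1.10 and 1.07). The list medians were 0.53, 0.50, -0.04 and 0.27 from 1 day to 3 weeks. Whether the listed genes, Nfkbiz among them, acted as brakes here was not tested.

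Of 18 known target genes tested, 14 were higher and 1 lower at 1 day, 11 higher at 3 days, 9 higher and 1 lower at 1 week and 6 higher and 1 lower at 3 weeks, with list medians of 3.25, 1.33, 1.14 and 0.40. At 1 day the target genes with the 4 greatest log2 fold changes were the chemokines Cxcl2 (6.33) and Cxcl1 (5.27), the enzyme Acod1 (5.46) and the cytokine Il1b (5.08). At 3 weeks Saa3, an acute-phase protein, was 3.30 higher and Il12a fell by 1.63. Of 11 endogenous ligands, 4 were higher at 1 day, S100a9 (5.37), S100a8 (5.11), Tnc (1.54) and Vcan (1.15). The list median was 0.05 at 1 day, then 0.38, 0.31 and 0.24 up to 3 weeks. S100a8 was 2.22 higher at 3 months (adjusted p = 0.047), a call that was lost without pair 2, 3 or 4, where no probe set was called. At 1 week Hspa1a fell by 1.27. S100a8 and S100a9 are also neutrophil genes. At 3 months 0 of 16 targets and 0 of 18 signalling genes were called by limma.

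**Figure D5:**
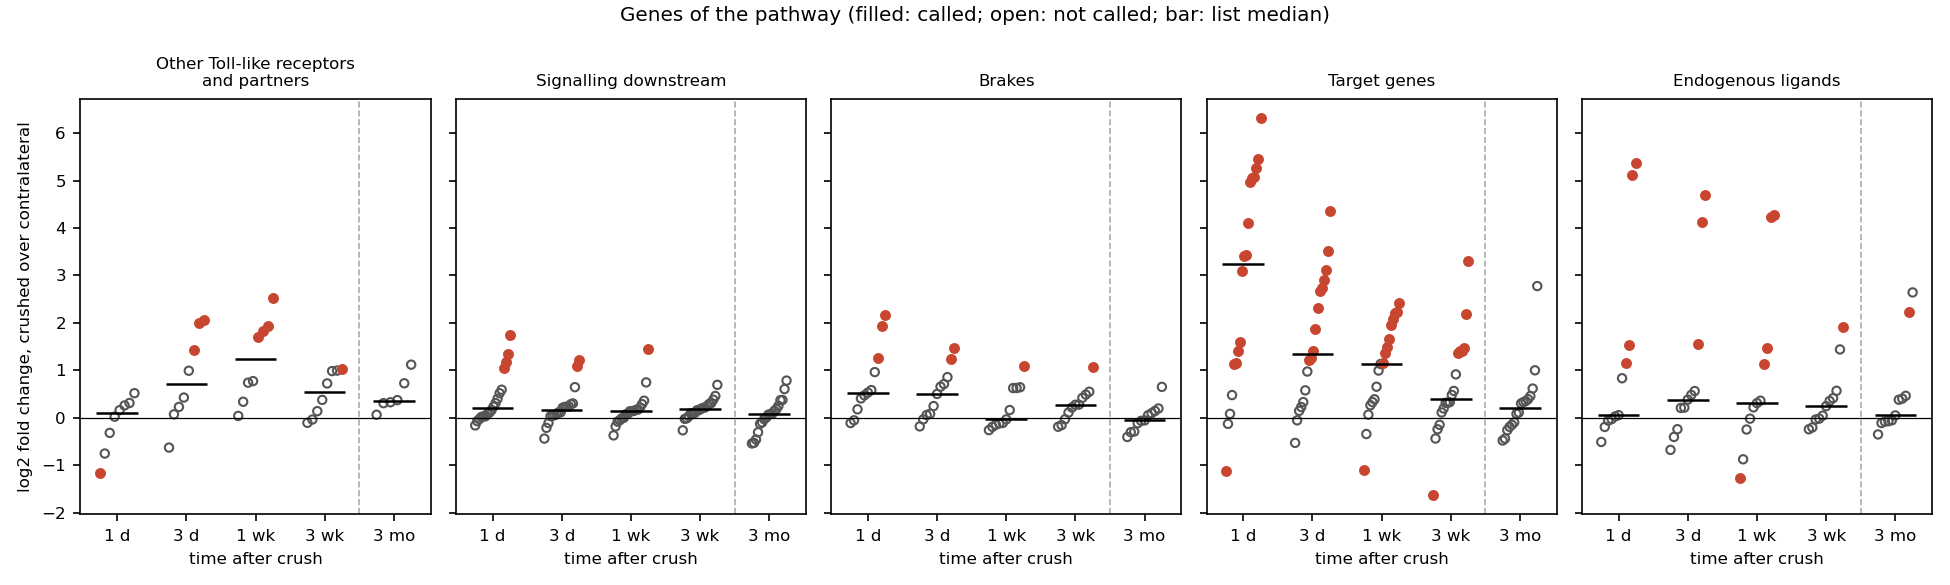
Log2 fold change of crushed over contralateral samples for the genes of 5 pathway lists at each time, 1 dot per gene, filled where called, with a bar at the list median. The median of the target genes was 3.25 at 1 day and 0.40 at 3 weeks, while that of the signalling genes stayed between 0.14 and 0.20 up to 3 weeks.

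Markers of several cell types changed with crush. From 1 day to 3 weeks 7.02%, 6.6%, 6.21% and 2.36% of all probe sets were called higher, and 7.44%, 2.2%, 3.53% and 1.75% lower. Of 17 microglia and macrophage genes tested, 4 were higher and 2 lower at 1 day, 7 higher at 3 days, 8 higher at 1 week and 4 higher at 3 weeks, with Cd68, a lysosomal protein of phagocytes, up by 2.04 at 1 week. Their mean log2 intensity ran from 10.79 to 11.14 in contralateral and from 11.66 to 12.45 in crushed samples at 1 week, but overlapped at 1 day (10.94 to 11.28 against 10.84 to 11.50). Of 7 genes typical of resting microglia, 5 were lower at 1 day, where P2ry12 fell by 2.47 and Cx3cr1 fell by 2.27. At 3 days, 1 week and 3 weeks 1 was higher and 1 lower each time. Fcrls, which fell by 1.53 at 1 day, was the higher one, by 2.54, 2.52 and 2.43. P2ry12 was the lower one at 3 days and Sall1 at 1 week (-1.09) and 3 weeks (-1.13). At 3 months Fcrls was 1.91 higher, a call lost without pair 2, 3 or 4, and 0 were lower. The list's mean log2 intensity was 10.13 in contralateral and 8.42 in crushed samples at 1 day. At 1 week it was 10.04 and 10.53. All 4 monocyte genes tested were higher at 1 day, 3 days and 1 week, with mean log2 intensities of 6.47 to 7.39 in contralateral and 11.19 to 11.87 in crushed samples at 1 day, and 5 of 7 neutrophil genes tested were higher at 1 day (5.58 to 6.12 against 7.38 to 8.52). The neutrophil genes Elane, Mpo, Ngp and Ltf were too dim to test. Of 3 B cell genes tested, 0 were called at 1 day, 2 were higher at 3 days and at 1 week and 1 at 3 weeks. Of 12 astrocyte genes, 3 were lower at 1 day, where the list median was -0.42, and 0 were called at the other times. Their mean log2 intensities at 1 day were 12.16 to 12.22 in contralateral and 11.36 to 11.77 in crushed samples. Of 10 oligodendrocyte genes tested, 6 were lower at 1 day, 3 at 3 days, 7 at 1 week, 4 at 3 weeks and 3 at 3 months, with means of 12.02 to 12.39 in contralateral and 10.01 to 11.50 in crushed samples at 1 day. The part of these cells in the changes of the members, among them the lower values of Tlr3, was not tested.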

How the data were processed

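Toll-like receptor and adaptor mRNA was measured on 55 one-colour arrays. The authors deposited linear intensity values made in DChip (invariant set normalization, model of perfect match minus mismatch), with each batch processed apart; array medians ran from 459 to 554 in the first and from 494 to 598 in the second batch, and the number of arrays limits the precision. Intensities were floored at 20, log2-transformed, and kept where at least 5 arrays of a fit reached 50 (64 array controls were left out). limma 3.58.1 in R 4.3.3 (lmFit, eBayes with trend) was fitted to 40 first-batch arrays (crushed and contralateral) with the pair as a block, to the 10 arrays at 3 months in the same way, and unpaired to 25 first-batch arrays (naïve and contralateral). The pairs come from the design, both eyes of the same mice; the deviations of paired samples correlated at over 0.1 in 8 of 25 pairs (median -0.03). The scripts were tested on simulated data. The members and lists were chosen with earlier results of these data known. Every probe set of the members is named, along with, for each list and time, up to 4 called genes with the greatest change in 5 of 5 pairs, and the 3 genes most like each member; exceptions were named after their values were seen. Lists had no set test, and the brightest single-gene probe set stood for a gene. Alternatives were other floors, filters and normalizations, no block, naïve controls, the methods' t-test, a photoreceptor covariate and leaving out each pair. Promoters came from RefSeq (GRCm38.p6).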

Additional observations from a re-analysis of the deposited data

Results flagged for a closer look

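Values of single samples that stood apart from the other 4 of their group were looked for by the gap to the nearest sample as a share of the range of the group, with a limit of 0.71. In 14 of 143 groups of a probe set and condition 1 sample passed it, and chance alone flags about 1 in 20 groups. Contralateral sample 1 at 3 months was low for Tlr4 1418162_at (gap share 0.823), Tlr4 1418163_at (0.876) and Tlr6 (0.742). Among the other contralateral samples, Tlr2 was high in sample 4 at 3 months (0.879) and low in sample 1 at 3 weeks (0.714), Tlr4 1418163_at was high in sample 5 at 1 week (0.733) and Ly96 was low in sample 4 at 3 days (0.727). Among naïve samples Tlr2 was low in sample 1 (0.843) and Tlr3 1422782_s_at in sample 4 (0.815). Among crushed samples Tlr3 1422781_at was high in sample 2 at 1 day (0.85), Tlr7 1422010_at low in sample 2 at 3 days (0.81), Myd88 high in sample 4 at 1 week (0.857) and in sample 5 at 3 weeks (0.778), and Tlr6 high in sample 2 at 3 weeks (0.743).

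The crush effect was called different between times for 4 probe sets by limma's contrasts in the first batch. Between 3 weeks and 1 week the log2 difference was -1.11 for Tlr1, -1.06 for Tlr4 1418163_at, -1.33 for Tlr6 and -1.69 for Tlr7 1422010_at, where 3.1% of all probe sets were called lower. The calls of Tlr1, Tlr4 and Tlr6 were each lost when some single pairs were left out. The count fell to 1 without pair 1 or without pair 4. Between 3 weeks and 1 day the difference was -1.58 for Tlr4 1418163_at, where 6% of all probe sets were called lower.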

How the results depend on the processing

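The member values were recomputed under 15 settings, 5 of which left out a pair. Among the 2130 values 20 lost a call and 15 gained one, and no value called in the main fit changed sign. Values not called in the main fit were not checked for a change of sign. Of the counts of members called higher, those at 1 day ran from 5 to 6, at 3 days from 7 to 7, at 1 week from 6 to 8 and at 3 weeks from 2 to 4 without 1 pair. The count called lower at 3 days was 1 with arrays shifted to a common median and ran from 0 to 1 without 1 pair (without pair 3 or 4 it was 1, Tlr3 1422781_at). At 3 weeks 5 were higher against naïve arrays, where 1200 of 19044 probe sets were called in either direction. The methods' t-test with Benjamini-Hochberg adjustment and a 2-fold limit called 1 higher at 1 week and 0 at 3 weeks. With a 2-fold limit and a difference of means above 100 in place of the adjustment, it called 1 at 3 weeks. The share of all probe sets called was not counted for these t-tests, and the cause was not tested. The 3-week minus 1-week count called lower was 2 under quantile normalization and ran from 1 to 4 without 1 pair, the 3-week minus 1-day count from 1 to 2, the 3-day minus 1-day counts from 0 to 1 higher and 0 to 1 lower, and the 1-week minus 3-day count called higher from 0 to 1. Without the replicate block, the pairing of both eyes, the counts called higher were 6, 7, 7 and 3 from 1 day to 3 weeks and 0 at 3 months, as with it, and a block across naïve and contralateral samples also called 0. At 3 days the median of all probe sets was 0.04, and -0.06 under quantile normalization and -0.09 with a common median. With the mean over all probe sets of a gene, the list median of the signalling genes at 1 day was 0.31 in place of 0.20. That of the endogenous ligands was 0.59 in place of 0.05 at 1 day and 0.53 in place of 0.31 at 1 week. By levels over 45 arrays, 11 of the 27 genes most like a member stayed among the most alike. Dim probe sets, such as Tlr6 and 2 of Tlr7, lie near the filter of 50, and 5 samples per group limit what small changes could be called.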
